A study of Mus musculus with 6 samples.

Results

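The clustered protocadherin locus of mouse chromosome 18 was examined at single CpG sites by reduced representation bisulfite sequencing of kidney DNA. The enzyme MspI cuts the DNA at CCGG, short fragments are kept, and bisulfite conversion tells methylated from unmethylated cytosines. Stretches rich in CpG are therefore sampled most. Members were all CpG sites from 37085000 to 38005000 of chromosome 18 (mm9, as are all positions here) with at least 10 reads in each of the 6 libraries. There were 660 such sites, of 1514 seen there in any library and of 943307 sites that met the same minimum in the whole genome. The alpha sub-cluster, taken as 37085000 to 37350000, held 139 members. The beta sub-cluster, 37420000 to 37690000, held 109, the gamma sub-cluster, 37815000 to 38005000, held 359, and 53 lay between sub-clusters. Position and coverage, and no methylation level, chose the members.

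The libraries came from cortex and outer medulla of kidneys of male wild-type C57BL/6J mice, in 3 groups of 2, to find genes whose methylation differs in kidney fibrosis. In the UUO 5AZA group the left ureter had been ligated and cut (unilateral ureter obstruction, a model of renal fibrosis) for 7 days with intraperitoneal 5AZA at 1 mg/kg per day. In the UUO saline group the same surgery was followed by daily saline for 7 days. The sham group had surgery without ligation. Sham 1 was the sham of the 7-day obstruction, and the label of sham 2 names a kidney ischemia/reperfusion experiment and 48 hours. Nothing in the labels states that libraries of a group came from separate mice, so the spread behind each p-value may be partly technical. Bulk tissue was used, so a change within cells and a change in the mix of cells cannot be told apart.

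Clustered protocadherins are cell-surface adhesion proteins best known from neurons, where each cell switches on its own combination of them as an identity code. In the alpha and gamma sub-clusters each variable exon has its own promoter and is spliced to constant exons shared by the sub-cluster, while beta genes are single-exon genes without constant exons. Many of these promoters are CpG islands, and in neurons methylation of a promoter and its binding by CTCF are alternatives that go with silence and use of that exon. The C-type genes at the downstream end of the alpha and gamma sub-clusters are regulated differently from the other variable exons and are expressed more uniformly. In the RefSeq table of the later build GRCm38.p6, which was used for names and order only, chromosome 18 carries 14 Pcdha, 22 Pcdhb and 22 Pcdhg genes. Pcdhac1 and Pcdhac2 come last among the alpha genes, and Pcdhgc3, Pcdhgc4 and Pcdhgc5 come last among the gamma genes. Gene positions on mm9 were not used here, so windows are given by position and without a gene.

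Reads at members came to 38917 and 47215 in the 5AZA libraries, 46565 and 43780 in the saline libraries, and 47700 and 23805 in sham 1 and sham 2. The median number of reads per member was 55 and 55 with 5AZA, 62 and 61 with saline, and 64 and 34 in sham 1 and sham 2. Sham 2 was thus the shallowest library. At the coverage limit, the 25 sites with a lowest library of 10 or 11 reads had a median level of 67.6% over the 6 libraries, and the 30 sites with 8 or 9 reads had one of 58.9%. The first member lay at 37091984 (87.0%) and the last at 38002547 (99.2%), while the nearest sites outside, at 37050773 and 38031875, had 98.6% and 82.0%.

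As a mean over sites, the locus was more methylated than the rest of the genome as sampled by the assay. Beta was the most methylated of its sub-clusters. The mean level over the 660 members was 57.1% over the 6 libraries, against 44.1% at the 942647 other sites. The locus was higher in 6 of 6 libraries, by 12.6 to 13.4 percentage points (exact two-sided sign-flip permutation test over libraries, p = 0.0312, the smallest that 6 libraries allow). The mean was 51.8% in alpha, 76.2% in beta, 54.3% in gamma and 50.6% between the sub-clusters. Alpha lay below beta by 23.2 to 25.5 points and beta lay above gamma by 21.0 to 23.2 points in 6 of 6 libraries each (exact sign-flip p = 0.0312 each). Alpha lay below gamma in 6 of 6 libraries too, by 2.52 ± 0.289 points (SD, n = 6) (exact sign-flip p = 0.0312), but averaged over 1 kb windows instead of sites alpha was the higher by 1.91 points. The order of alpha and gamma therefore rested on how sites were weighted, whereas beta was highest either way. That of the locus and the rest did too, as the median 1 kb window of at least 3 sites had 64.6% at the locus and 81.1% elsewhere. Medians were 80.6% and 88.7% in windows of 3 or 4 sites and 64.6% and 83.8% in windows of 5 to 9. Only in windows of 10 or more sites was the locus higher, at 52.9% against 18.3%. Each sign-flip test asks only whether a sign repeats over libraries that read the same sites, and compares no other loci.

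Levels changed along each sub-cluster. In alpha, means per 50 kb over the 6 libraries were 66.2%, 85.0% and 92.4% in the first 150 kb (45, 13 and 2 sites), and 36.2% and 37.7% in the next 2 stretches (32 and 47 sites). In these last stretches 15 of 32 and 27 of 47 sites had a level under 20%, against 2 of 45, 1 of 13 and 0 of 2 before them. Most of these sites lay in a few 1 kb windows, such as 37249001 (18 sites, 23.9%), 37303001 (19 sites, 17.5%) and 37304001 (21 sites, 29.9%). In the same stretches 37275001, 37276001 and 37315001 had 96.5%, 99.1% and 92.4% (1, 1 and 4 sites). The low means are thus not those of whole stretches. In gamma the first 3 stretches of 50 kb had 62.6%, 57.7% and 57.4%, and the last 40 kb had 37.4%, where 39 of 82 sites were under 20%. There too windows differed, with 22.0% at 37966001 (18 sites) and 23.0% at 37975001 (14 sites), but 82.3% at 37979001 and 81.3% at 37980001 (3 sites each). Beta held no 50 kb stretch of so low a mean. Its 50 kb means ranged from 69.7% to 95.9%, and 4 of its 109 sites were under 20%, all of them in the first 50 kb. The windows behind the low means of alpha and gamma stood toward the end at which the C-type genes come in the RefSeq order.

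**Figure D1:**
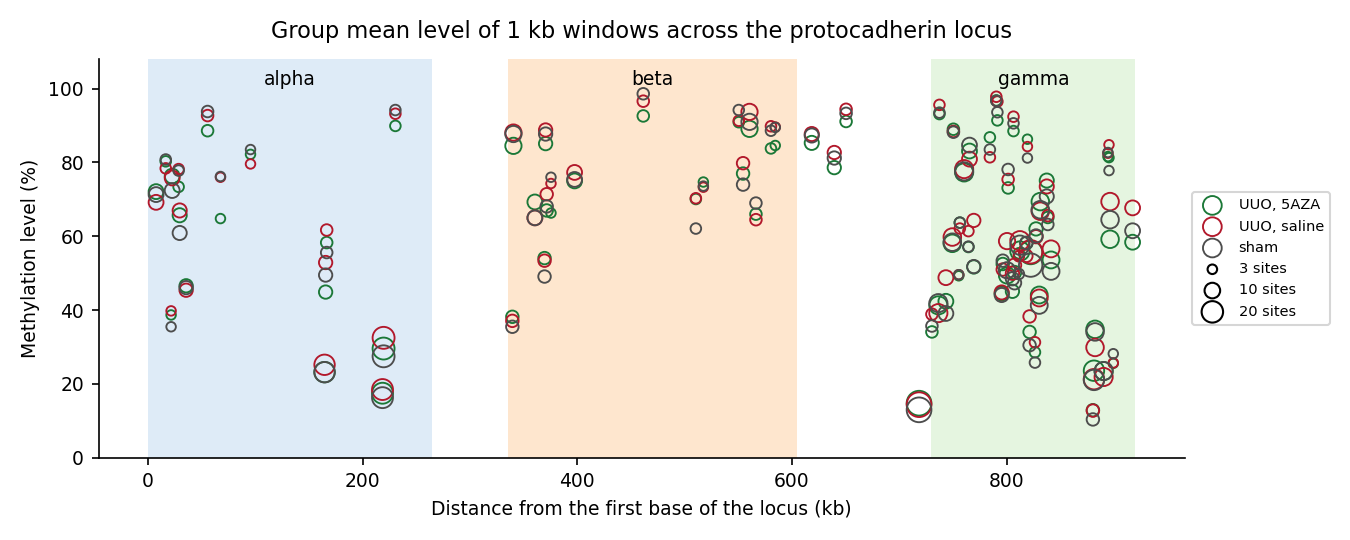
Group mean methylation level (%) of the 81 windows of 1 kb with at least 3 members, against distance in kb from the first base of the locus. Green circles are UUO 5AZA, red UUO saline and grey sham (2 libraries each), circle area grows with the number of sites, and shading marks the sub-clusters. Beta windows average 36.9% or more over the 6 libraries, and the lowest beta circle is sham at 35.5%. Low windows gather late in alpha and gamma, and the circles of the 3 groups largely coincide.

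The locus was rich in sites of intermediate level, meaning a mean of 20 to 80% over the 6 libraries. Such sites made up 287 of 660 members (43.5%), against 19.2% of the other sites of the genome and 18.2% of the other sites of chromosome 18. In single libraries the share was 43.0% and 43.3% with 5AZA, 41.8% and 42.3% with saline, and 43.2% and 43.6% in sham at the locus. Outside the locus it was between 17.0% and 20.8% in the 6 libraries. The excess of 22.5 to 25.3 points had the same sign in 6 of 6 libraries (exact two-sided sign-flip p = 0.0312, a test added after the data were seen). That test asks only whether the sign repeats over libraries that read the same sites, and does not compare the locus with other loci. Gamma had the highest share, 186 of 359 sites (51.8%), then beta with 45 of 109 (41.3%) and alpha with 45 of 139 (32.4%). The counterpart was a shortage of low sites: 20.5% of members were under 20%, against 47.5% elsewhere, while 36.1% of members and 33.3% of other sites were at 80% or more.

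The assay can add methylation at the ends of its own fragments, since end repair used methylated dCTP per the labels' protocols. A site was taken as a candidate fragment end if its coverage equalled the sum of both neighbours' within 5%, or if it had at least 30% in a window that held at least 10 sites and had a median under 5%. There were 53 such members (8.03%), with a mean level of 75.8%, against 55.5% at the other members. Outside the locus they were 11.2% of sites. Without them the intermediate share was 262 of 607 members (43.2%), against 12.7% of other sites. The rule takes out sites partly by their level, so these shares depend on it by construction. Inner sites were chosen by coverage alone, as those with the same number of reads as both neighbours in all 6 libraries, which sites read by the same fragments would have. At such inner sites 40 of 78 members (51.3%) were intermediate, against 4.62% of 199080 elsewhere. Gamma had 28 of 44 (63.6%), alpha 7 of 18 (38.9%) and beta 5 of 5. The mean level of inner members was 34.2%, against 11.2% at inner sites elsewhere.

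**Figure D2:**
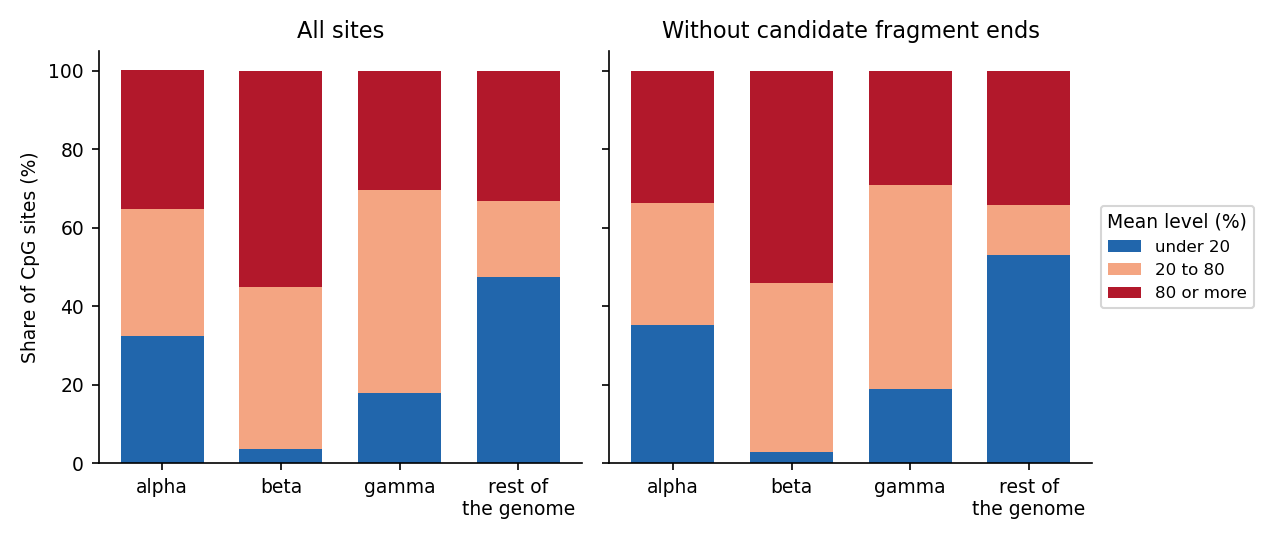
Share of CpG sites (%) whose mean level over 6 libraries was under 20% (blue), 20 to 80% (orange) or 80% or more (red), in alpha, beta, gamma and the rest of the genome, for all sites (left) and without candidate fragment ends (right). The orange share is 51.8% in gamma and 19.2% in the rest of the genome with all sites, and 52.1% and 12.7% without the ends.

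The members fell into 103 windows of 1 kb, of which 81 held at least 3 members and were tested: 16 in alpha, 17 in beta, 44 in gamma and 4 between. The level of a window is its methylated reads over its covering reads. Of the 81, 55 (67.9%) were intermediate, against 33.2% of the 89732 other windows. The contrast was sharpest in CpG-dense windows of at least 10 sites, which elsewhere were mostly low: 57.9% of 20982 were under 20% and 32.9% intermediate. At the locus 15 of 19 dense windows were intermediate, 2 were under 20% and 2 were at 80% or more. All 13 dense gamma windows were intermediate, from 22.0% to 77.7% with a median of 53.6%. Both dense beta windows were high, at 86.8% and 91.3%. The 3 dense alpha windows had 17.5%, 23.9% and 29.9%.

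Dense windows differed in how far their level moved without candidate fragment ends. Without them 12 of the 17 locus windows that still held at least 10 sites were intermediate, against 13.4% of 18465 elsewhere. In gamma 11 of 13 were. The dense gamma window at 37966001 to 37967000 (18 sites, 6 of them candidate ends) had 22.0% with all sites and 2.46% without, and that at 37975001 to 37976000 had 23.0% and 2.47%. In alpha, 37303001 to 37304000 (19 sites) had 17.5% and 1.99%, and between beta and gamma 37803001 to 37804000 (27 sites) had 14.0% and 1.25%. In windows with a median site under 5%, the rule counts each site of 30% or more as a candidate end, so the low level left there follows from the rule, and whether these sites are fragment ends was not tested. The gamma windows from 37834001 to 37927000 with at least 10 sites had 36.1% or more without the ends. Outside that range 37821001 had 34.3%, 37967001 had 20.5% and 37981001 had 61.0%.

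**Figure D3:**
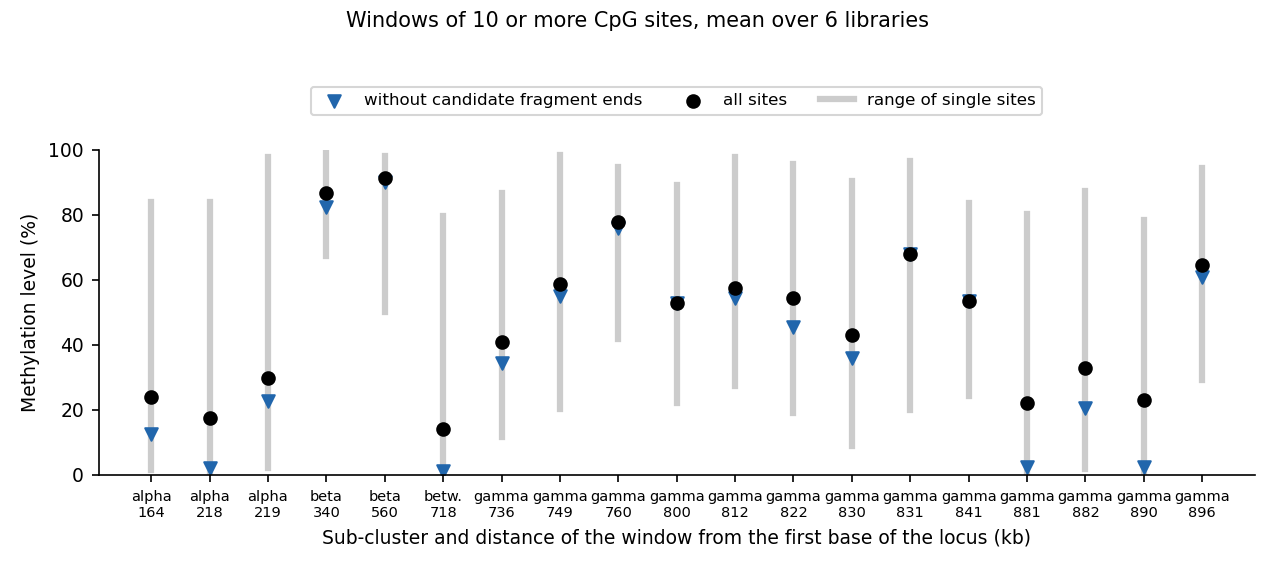
Methylation level (%) of the 19 windows of 1 kb with at least 10 members, in order along the locus; labels give the sub-cluster and the distance in kb from the first base of the locus. Black points are levels from all sites, blue triangles those without candidate fragment ends (means of 6 libraries), and grey bars span the levels of single sites. Of the low windows, 37966001 has 22.0% from all sites and 2.46% without the ends. The gamma windows from 37834001 to 37927000 keep 36.1% or more, while 37821001 has 34.3% and 37967001 has 20.5% without the ends.

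The windows with most sites show what these averages hold. The largest gamma window was 37907001 to 37908000, with 24 sites and 1118 to 2604 reads per library. Its level was 57.6% and 53.5% with 5AZA, 56.3% and 55.2% with saline, and 52.8% and 51.5% in sham, so 6 of 6 libraries lay near the middle of the scale. Its sites ranged from 19.1% to 95.5%, and 17 of 24 were intermediate. Its 3 inner sites had 31.8%, 32.5% and 32.6%, and without its 3 candidate ends the window had 45.5%. Window 37897001 to 37898000 (16 sites) had 59.7% and 52.2% with 5AZA, 55.9% and 61.7% with saline, and 56.8% and 58.3% in sham, with 13 of 16 sites intermediate and none under 20%. In window 37926001 to 37927000 (12 sites, none a candidate end, chosen after its values were seen) 5 inner sites ranged from 41.1% to 62.2% and 11 of 12 sites were intermediate.

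Alpha's largest windows were of another kind. Window 37304001 to 37305000 (21 sites, 1267 to 2458 reads) had 29.9% and 29.3% with 5AZA, 33.4% and 31.6% with saline, and 29.0% and 26.0% in sham. Of its sites 12 were under 20% and 5 at 80% or more, and its median site had 10.3%, so its level was a mix of low and high sites. Next to it, 37303001 to 37304000 was the lowest alpha window, at 19.0% and 16.1% with 5AZA, 19.2% and 17.9% with saline, and 16.3% ± 2.39 (SD, n = 2) in sham. Window 37249001 to 37250000 (18 sites) had 24.1% and 22.2% with 5AZA, 26.0% and 24.4% with saline, and 22.7% and 23.7% in sham, and 12.5% over the 6 libraries without its candidate ends. At the other extreme, 37140001 to 37141000 (5 sites) had 88.9% and 88.3% with 5AZA, 95.6% and 89.9% with saline, and 94.4% and 93.2% in sham.

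Of the 17 tested beta windows 7 were at 80% or more, 10 were intermediate and 0 were under 20%. The beta window with most sites, 37425001 to 37426000 (11 sites), had 84.8% and 84.1% with 5AZA, 87.3% and 88.8% with saline, and 89.8% and 85.7% in sham. The adjacent window 37424001 to 37425000 (6 sites) was the lowest of beta, at 38.3% and 38.0% with 5AZA, 35.2% and 39.0% with saline, and 37.1% and 33.9% in sham. In 6 of 6 libraries these neighbouring kilobases thus stood far apart. Window 37645001 to 37646000 (11 sites) had 90.3% and 87.9% with 5AZA, 95.9% and 91.5% with saline, and 91.8% and 90.1% in sham. Window 37445001 to 37446000 (9 sites) had 63.0% and 75.6% with 5AZA, 69.1% and 60.9% with saline, and 69.7% and 60.3% in sham, so libraries of one group differed more than groups did. The lowest gamma window of at least 5 sites, 37965001 to 37966000, averaged 12.9% ± 2.63 with 5AZA, 12.8% ± 0.604 with saline and 10.4% ± 0.684 in sham (SD, n = 2 each). The highest, 37835001 to 37836000, averaged 88.5%.

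Sites within a window differed far more than libraries did. The SD between sites of one window was 25.3 points, that between window means 22.4 points, and that between the libraries of a group at one site 6.74 points. Site levels of any pair of libraries correlated at r = 0.942 to 0.974 over the 660 members, and window levels at 0.968 to 0.983 over 81 windows. These are descriptions across sites that share their library. Close neighbours differed too: of 131 runs of neighbouring sites with equal coverage in all libraries, 39 (29.8%) spanned at least 20 points. In one run of 4 sites from 37880290 to 37880336 the levels were 18.6%, 36.4%, 16.3% and 94.3%, the widest span at 78.0 points, at 12 to 18 reads per library. In 9 runs a site of 80% or more stood with one under 50%. Of these, 5 held only 2 sites, so that each site was at an edge, and in the other 4 the high site was at the edge in 4 of 4. Whether fragment ends made these edge sites high was not tested.

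The first comparison asked where obstruction changed methylation. At the locus the saline kidneys were slightly more methylated on average, and no window passed the test. The site mean was 58.6% and 58.2% in saline, against 57.4% and 55.5% in sham 1 and sham 2, a difference of 1.93 points (exact two-sided permutation p = 0.33, the smallest that 2 against 2 allow). It was 1.70 points in alpha and 2.12 in gamma (exact permutation p = 0.33 each) and 1.94 in beta (exact permutation p = 0.67), where the groups overlapped. Outside the locus it was 1.61 points. The locus difference relative to the rest was 0.319 points (exact permutation p = 0.67). It was -1.02 points with other sites weighted to the level classes of the locus (exact permutation p = 0.333). With methylated reads divided by all reads it was 2.12 points, and the alpha difference was 5.02 points (exact permutation p = 0.333 each). Sham 2 was the lower sham library: the locus difference was 0.978 points without it and 2.88 points without sham 1, and in beta 0.111 and 3.77 points.

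**Figure D4:**
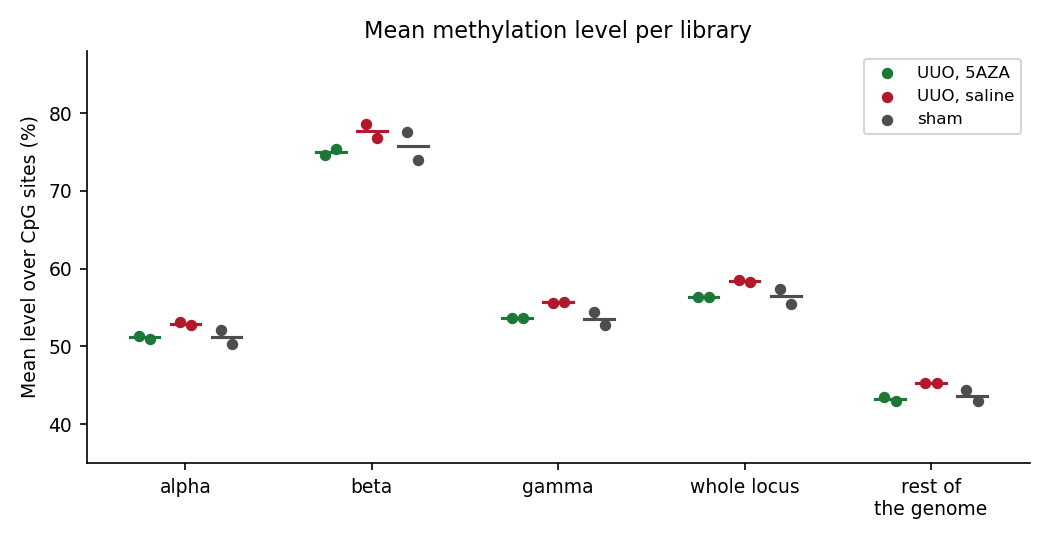
Mean methylation level over CpG sites (%) in each library for alpha, beta, gamma, the whole locus and the rest of the genome. Points are libraries and short lines are means of the 2 libraries of UUO 5AZA (green), UUO saline (red) and sham (grey); the vertical axis starts at 35%. Beta lies above the other regions in 6 of 6 libraries, and sham 2 is the lower point of each sham pair.

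By edgeR's quasi-likelihood test with Benjamini-Hochberg adjustment over 89813 windows, 0 of the 81 locus windows differed between saline and sham at an adjusted p under 0.05, against 0.0501% of all windows. At an unadjusted p under 0.05 there were 7, against 10.4% of all windows. Of these, 6 were higher in saline (8.71% of all windows) and 1 was lower (1.72%). Limma called 0 (3 unadjusted), against 0.0% of all windows. Fisher's exact test on pooled reads, which leaves out the spread between libraries, called 10, against 9.65% of all windows. For limma's unadjusted windows no share over all windows was counted in any comparison. The mean was higher in saline in 55 windows (68.2% of all windows). In 20 windows both saline values exceeded both sham values (24.7%; 32.3% of all windows), and in 3 both were below (3.70%; 9.73%). For the locus as a whole, both shares without overlap were under those of all windows. The median window difference was 1.38 points at the locus and 1.13 points over all windows.

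The largest rises without overlap were in gamma. Window 37854001 to 37855000 (7 sites, 149 to 842 reads) had 69.8% and 58.7% in saline, against 52.5% and 51.0% in sham, a difference of 12.5 points (edgeR adjusted p = 0.365). Window 37828001 to 37829000 (9 sites) had 50.4% and 47.2% in saline, against 40.7% and 37.6% in sham, a difference of 9.69 points (edgeR adjusted p = 0.27, the lowest at the locus). Both saline libraries stood above both sham libraries in each, yet neither passed. In alpha, 37114001 to 37115000 and 37251001 to 37252000 differed by 6.15 and 6.13 points (edgeR adjusted p = 0.56 and 0.571). Among the lower windows, 37651001 to 37652000 in beta had 64.4% and 64.7% in saline, against 68.7% and 69.2% in sham, a difference of -4.44 points (edgeR adjusted p = 0.694). Windows 37546001 to 37547000 in beta and 37092001 to 37093000 in alpha differed by -2.09 and -2.12 points (edgeR adjusted p = 0.47 and 0.775). Among tested windows, 0 of 17 in beta had both saline libraries above both sham libraries, and 2 (11.8%) had both below. In gamma 15 of 44 (34.1%) had both above and 0 had both below. Alpha had 25.0% above and 6.25% below, and all windows of the genome 32.3% and 9.73%.

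The second comparison asked what 5AZA, as the labels call the drug, changed in the obstructed kidney. Drugs of the azacytidine type are incorporated into DNA and trap DNA methyltransferases. The locus was less methylated with 5AZA as a mean over sites. The site mean was 56.38% and 56.42% with 5AZA, against 58.6% and 58.2% with saline, a difference of -2.0 points (exact two-sided permutation p = 0.33, again the minimum). It was -1.76 points in alpha, -2.71 in beta and -2.03 in gamma (exact permutation p = 0.33 each), and -2.04 outside the locus. Relative to the rest the locus differed by 0.0418 points (exact permutation p = 0.67). This was 1.60 points with other sites weighted to the level classes of the locus and 1.37 points as a mean over windows (exact permutation p = 0.333 each), so its size rested on the weighting. With methylated reads divided by all reads of the locus, the difference was 0.0817 points, so its sign changed when sites were weighted by their reads. By class of site, members of 80% or more differed by -2.32 points, against -3.33 elsewhere, and intermediate members by -2.14 points, against -3.97 elsewhere (exact permutation p = 0.33 each). For intermediate sites, the saline minus sham difference was 2.21 points at the locus and 4.23 elsewhere (exact permutation p = 0.33 each). The 2 sets of intermediate sites were unlike, so these values do not compare matched sites. At the locus 121 of 287 had 60 to 80%, against 130240 of 180913 elsewhere. Without candidate fragment ends 262 and 106631 intermediate sites remained.

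With 5AZA against saline, edgeR's quasi-likelihood test with Benjamini-Hochberg adjustment called 0 of 81 locus windows, against 1.55% of all windows. At an unadjusted p under 0.05 there were 9 (23.2% of all windows), of which 9 were lower with 5AZA (22.8%) and 0 higher (0.416%). Limma called 0 (5 unadjusted), against 0.0% of all windows, and Fisher's exact test on pooled reads 14, against 26.0% of all windows. The mean was lower with 5AZA in 53 windows (79.1% of all windows). In 26 windows both 5AZA values were under both saline values (32.1%; 49.1% of all windows), and in 4 both were above (4.94%; 5.69%). The median window difference was -1.33 points at the locus, against -2.70 points over all windows. The median was -1.69 in alpha, -2.78 in beta and -0.67 in gamma.

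The nearest to a call was in gamma, at 37981001 to 37982000 (13 sites, 413 to 1261 reads). It had 56.7% and 61.8% with 5AZA, 69.9% and 68.8% with saline, and 64.3% and 64.6% in sham. Both 5AZA libraries lay below the other 4, and the difference from saline was -10.1 points (edgeR adjusted p = 0.0514). With windows of at least 5 sites only, its edgeR adjusted p was 0.049. It was the 1 call among 55 locus windows there, against 2.12% of all such windows. Over all alternatives but the pooled Fisher test its adjusted p ranged from 0.049 to 0.207. Window 37854001 to 37855000 averaged 51.7% ± 2.44 with 5AZA and 64.3% ± 7.84 with saline (SD, n = 2 each), a difference of -12.5 points (edgeR adjusted p = 0.128). Over 14 alternatives this difference ranged from -18.1 to -5.39 points. With sham at 52.5% and 51.0%, saline was the group apart in this window, and saline 1 the farthest library, in levels weighted by reads. By single sites, saline 1 was lower than saline 2 at 37854706 (40.0% against 44.8%) and 37854715 (20.0% against 49.3%), and higher at the others.

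In alpha, 37152001 to 37153000 (3 sites, 74 to 199 reads) had 56.3% and 73.4% with 5AZA, against 75.2% and 76.7% with saline, a difference of -11.1 points (edgeR adjusted p = 0.28) that came mostly from 5AZA 1. This level weights sites by their reads, and at each single site the 2 groups overlapped. With 5AZA against saline, 37152290 had 94.6% and 96.9% against 96.9% and 96.7%. Site 37152524 had 10.4% and 20.8% against 20.0% and 13.0%, and 37152548 had 68.2% and 85.1% against 75.0% and 82.6%. Window 37250001 to 37251000 had 46.5% and 43.3% with 5AZA, against 57.2% and 48.6% with saline, a difference of -8.01 points (edgeR adjusted p = 0.182). In beta, 37460001 to 37461000 and 37665001 to 37666000 differed by -7.98 and -6.05 points (edgeR adjusted p = 0.334 and 0.217). Of the 81 windows, 28 had a higher mean with 5AZA than with saline, by up to 5.41 points. In each sub-cluster 1 tested window was higher without overlap (6.25% in alpha, 5.88% in beta and 2.27% in gamma, against 5.69% of all windows). These were 37092001 to 37093000 in alpha by 2.84 points, 37821001 to 37822000 in gamma by 2.15 points and 37651001 to 37652000 in beta by 1.47 points (edgeR adjusted p = 0.464, 0.788 and 0.847). In the gamma window the 2 sham libraries had 49.8% and 34.1%, wider apart than the groups were.

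**Figure D5:**
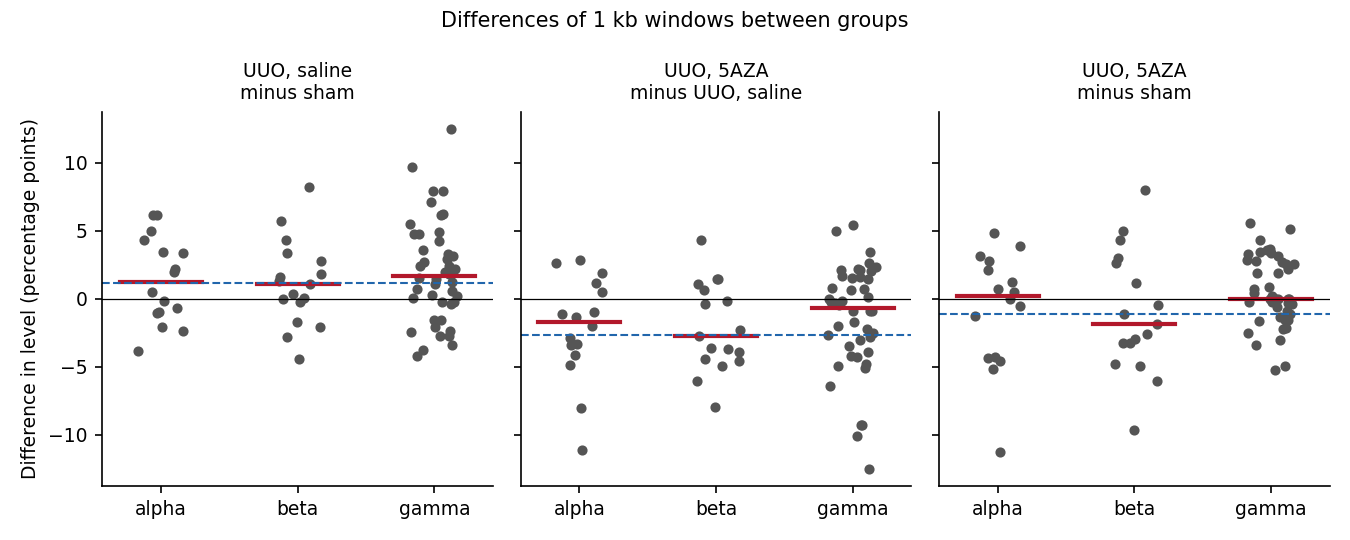
Differences in level (percentage points) of single 1 kb windows (grey points) in alpha, beta and gamma for UUO saline minus sham, UUO 5AZA minus UUO saline and UUO 5AZA minus sham. Red lines are medians of the sub-cluster, the blue dashed line is the median over all windows of the genome and the black line is 0. In the middle panel the gamma median, -0.67 points, lies above the genome median of -2.70 points.

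Against sham, the 5AZA kidneys had almost the same mean level at the locus. It was 56.38% and 56.42% with 5AZA, against 57.4% and 55.5% in sham, a difference of -0.0711 points (exact two-sided permutation p = 1.0), and the sham libraries lay on either side of both. The differences were -0.0612 points in alpha, -0.772 in beta and 0.0947 in gamma (exact permutation p = 1.0 each), and each changed sign when one or the other sham library was left out. Of the 81 windows 0 were called by edgeR's quasi-likelihood test with Benjamini-Hochberg adjustment, against 0.00111% of all windows, and 2 had an unadjusted p under 0.05 (14.7% of all windows), 2 lower with 5AZA (13.3%) and 0 higher (1.43%). Limma called 0 (3 unadjusted), against 0.0% of all windows, and the pooled Fisher test 3, against 12.4% of all windows. Both 5AZA libraries lay above both sham libraries in 8 windows (9.88%; 12.9% of all windows) and below both in 13 (16.0%; 31.9%). The lowest adjusted p was at 37546001 to 37547000 in beta (5 sites), the highest beta window by level. It had 92.0% and 93.2% with 5AZA, 95.8% and 97.3% with saline, and 99.1% and 98.2% in sham, a difference from sham of -6.05 points (edgeR adjusted p = 0.134). The 3 groups did not overlap there. All 3 comparisons share libraries in pairs, so their differences are not independent of each other.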

How the data were processed

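MspI fragments were end-repaired with methylated dCTP, joined to methylated adapters and size-selected in 2 classes (inserts of 40 to 120 bp and of 120 to 220 bp) before bisulfite conversion and amplification, per the labels' protocols. Bowtie and mm9 are named in the submitters' processing notes. The version, methylation caller and filters were not given in the sources used here. No file has a header. The 6 files hold, per CpG site, deposited counts of covering and of methylated reads and a fraction that the authors deposited, which equals their ratio. Counts were used. Positions are printed 1-based. Coverage counts reads, which need not be separate molecules.

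Levels are percents per site (at least 10 reads in all 6 libraries) averaged over sites, or methylated over covering reads summed in 1 kb windows of at least 3 sites. Group means of 2 were compared by exact permutation and regions within libraries by exact sign flips. Windows were tested genome-wide with edgeR 4.0.16 in R 4.3.3 (glmQLFit, glmQLFTest, 1 intercept for each library, a group term on methylated counts, all 6 libraries in one fit) and adjusted by Benjamini-Hochberg. The fit was also run on simulated data with a set spread, which does not measure its power or error in these data. Replicate numbers did not pair libraries, since the groups have fewer than 3 pairs and the labels name no shared source. Alternatives were a minimum of 5 or 20 reads, other windows, limma 3.58.1 on log2 ratios, Fisher's exact test, left-out libraries and sites, and other weightings; inner sites only was added after seeing the data. Python 3.11.15, numpy 2.4.6 and pandas 2.3.3 were used.

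Members and lists were chosen with earlier results of these data known. Named windows were, per sub-cluster, the 2 largest rises and falls without overlap for saline against sham and 5AZA against saline, the 3 with most sites, and the highest and lowest of at least 5 sites. Other windows named were chosen after their values were seen.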

Additional observations from a re-analysis of the deposited data

How the results depend on the processing

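No locus window was called under the alternatives run, with 2 exceptions. In windows of at least 5 sites, 1 of 55 locus windows was called for 5AZA against saline, against 2.12% of all such windows. Fisher's exact test on pooled counts called 10, 14 and 3 for saline against sham, 5AZA against saline and 5AZA against sham. It called 9.65%, 26.0% and 12.4% of all windows. Genome-wide counts moved more, and the cause was not tested. Saline against sham gave 0 without candidate fragment ends and by limma, 8663 by Fisher's test, 28 in windows of 500 bp, 72 with the 4 libraries compared and 2 with the replicate block. 5AZA against saline gave 850 at a minimum of 20 reads, 0 without candidate fragment ends and by limma, 23348 by Fisher's test, 413 in windows of 500 bp, 173 with the 4 libraries compared and 98 with the replicate block. 5AZA against sham gave 0 without candidate fragment ends, by limma and with the replicate block, and 11109 by Fisher's test. Leaving out single libraries gave 0 to 72, 0 to 1180 and 1 to 148 calls. The replicate 1 minus 2 differences correlated at r = 0.0762 between saline and 5AZA, -0.0669 between saline and sham and -0.0829 between 5AZA and sham.

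Sub-cluster differences ranged from -24.6 to -24.1 (alpha minus beta), -2.59 to -2.43 (alpha minus gamma) and 21.6 to 22.0 points (beta minus gamma) without single libraries, where the smallest possible p rises to 0.0625. Alpha minus gamma was 1.91 points as a mean over windows. The 5AZA minus sham difference changed sign most often. It was 0.252 in alpha and -0.333 in gamma at a minimum of 5 reads, 0.134 and -0.0077 without candidate ends, 0.316 in the locus and 1.86 in alpha at inner sites, and 2.13 and 2.50 as reads over all reads. Without single libraries it ranged from -1.02 to 0.880 in the locus, -0.969 to 0.846 in alpha, -2.60 to 1.06 in beta and -0.693 to 0.883 in gamma. As reads over all reads, 5AZA minus saline was 0.0817 in the locus and 0.486 in gamma. Beta's saline minus sham difference was -2.64 at inner sites. Relative to other sites, the 5AZA minus saline difference was -0.0263 and -0.271 at minimums of 5 and 20 reads, -0.705 at inner sites, -0.736 as reads over all reads and -0.186 to 0.270 without single libraries, but 1.37 as a mean over windows and 1.60 with other sites weighted to the level classes of the locus. Relative to other sites, 5AZA minus sham was -0.0199 at a minimum of 20 reads, and saline minus sham was -0.0820 as a mean over windows and -1.02 with other sites weighted to the level classes of the locus. None of the named windows reversed. Depth limits windows such as 37152001, which could not be tested at a minimum of 20 reads.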
